A study of Homo sapiens with 25 samples.

Results

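APOE, its locus neighbour APOC1 and 6 genes linked to the liver X receptors (LXRs) were described in 2 human lung cancer lines after antisense oligonucleotides (ASOs) against 2 long noncoding RNAs. The 8 genes, out of 59427 gene names measured, were APOE, APOC1, ABCA1, ABCG1, MYLIP, LPCAT3, NR1H2 and NR1H3. They were taken by name. The list was chosen by the rise of APOE with the ASOs against candidate 42, so the values of APOE in those comparisons are a description with no test. The question was whether the other LXR-linked genes moved with it.

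RNA was sequenced from A549 (lung adenocarcinoma) and NCI-H460 (another non-small cell lung cancer line), 24 h after transfection with 25 nM of an ASO, a short modified oligonucleotide that pairs with an RNA and commonly leads to its cleavage. Each line had 5 groups: candidate 42 ASO3, candidate 42 ASO5, candidate 240 ASO1, candidate 240 ASO3, and a control, the neutral ASO Control A of Qiagen. All groups, controls included, therefore carried a transfected oligonucleotide. The labels call candidate 42 CHiLL1 and candidate 240 CHiLL2. There were 3 libraries in each A549 group, numbered 3, 4 and 5, and 2 in each NCI-H460 group, numbered 1 and 2. The labels do not say whether these came from separate cultures, so p-values measure only the spread between these libraries. Each line comes from a single tumour, and in bulk RNA a change in the share of cells that express a gene cannot be told apart from a change per cell.

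LXRs are nuclear receptors that bind oxysterols, the oxidised forms of cholesterol. They sit on DNA as a pair with a retinoid X receptor (RXR) and switch on genes that move cholesterol out of the cell. NR1H2 encodes LXR beta, which most tissues express, and NR1H3 encodes LXR alpha. APOE and APOC1 encode lipoprotein proteins, ABCA1 and ABCG1 encode membrane pumps that load cholesterol onto acceptor particles, MYLIP encodes a ubiquitin ligase that limits lipoprotein uptake, and LPCAT3 encodes an enzyme that builds polyunsaturated phospholipids. These 6 are textbook LXR targets, best known from macrophages and liver. The LXR-RXR pair binds a direct repeat of the half-site AGGTCA with a spacer of 4 bases (DR4), and for APOE and APOC1 the known LXR elements lie in shared enhancers downstream of APOE, outside its promoter.

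The DR4 motif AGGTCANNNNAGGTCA was searched on both strands, with up to 2 mismatches over its 12 specified letters, in RefSeq promoter windows of GRCh38.p14 that run from 250 bases before to 50 bases after a gene start. Windows were at hand for 7 of the 8 genes, all but ABCG1, with 12 windows in all. A match was found in 1 of the 12, at ABCA1, and in 2.35% of all 34796 windows of the same length (816 windows). The window of ABCA1 (chr9:104928106-104928405, minus strand) is shown because it holds the match and that of APOE (chr19:44905546-44905845, plus strand) because APOE had the widest range of levels; lower case is the promoter 5′ to 3′ and capitals mark the DR4 match.
ABCA1: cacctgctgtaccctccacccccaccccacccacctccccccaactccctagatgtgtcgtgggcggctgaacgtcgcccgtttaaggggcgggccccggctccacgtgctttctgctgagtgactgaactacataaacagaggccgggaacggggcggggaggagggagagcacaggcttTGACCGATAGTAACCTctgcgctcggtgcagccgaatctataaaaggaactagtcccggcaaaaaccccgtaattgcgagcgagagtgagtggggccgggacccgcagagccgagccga
APOE: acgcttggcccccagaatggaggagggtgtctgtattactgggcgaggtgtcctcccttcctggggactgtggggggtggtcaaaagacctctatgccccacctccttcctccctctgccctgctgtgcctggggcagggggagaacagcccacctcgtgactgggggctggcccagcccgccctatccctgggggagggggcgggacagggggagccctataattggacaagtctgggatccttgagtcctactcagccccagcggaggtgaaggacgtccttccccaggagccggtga
In the ABCA1 window the matching 16 letters, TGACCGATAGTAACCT, read as the repeat on the opposite strand, with 2 mismatches, and are centred 61 bases before the start (chr9:104928209-104928224). A match is a description of letters, and the lack of one in the other windows says nothing about LXR at those genes.

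Levels are given in TPM, an abundance corrected for transcript length and scaled to the library, as deposited by the authors, and differences as log2 differences of TPM + 0.5, from a limma fit over all genes of a line. Calls needed an adjusted p under 0.05, with Benjamini-Hochberg adjustment over 14740 genes in A549 and 13774 in NCI-H460. In A549 replicate 3 of candidate 240 ASO3 stood apart on the first principal component (24.6% of the variance), at -71.95, while replicates 4 and 5 of candidate 240 ASO3 lay at -10.5 and -11.7. In each of the 5 groups the replicate 3 library lay below replicates 4 and 5 on that component. In NCI-H460 the first component (48.2%) set the candidate 42 ASO3 libraries, at 72.2 and 38.7, apart from the other 8, which lay between -28.5 and 3.06. The labels do not name the target genes. AC107959.3, taken as candidate 42, stood at 8.55% of control with candidate 42 ASO3 and 45% with ASO5 in A549, and at 30.3% and 95.5% in NCI-H460; AC015712.6, taken as candidate 240, stood at 53.4% with candidate 240 ASO1 and 4.44% with ASO3 in A549, and at 111% and 59.6% in NCI-H460, where it was at most 0.107 TPM in controls. Of 8 lung epithelial markers, 6 reached a mean of 1 TPM in A549 and 4 in NCI-H460, where EPCAM and CDH1 did not; NKX2-1 and SFTPB were near 0 in both. In A549 the summed level of the 8 lay at 6699.9 to 8051 TPM with candidate 42 ASO3, 9939.9 to 10270.5 TPM with candidate 42 ASO5, 6453 to 8933 TPM with candidate 240 ASO3 and 8699 to 10107 TPM with the control ASO, so that candidate 42 ASO3 did not overlap the controls. There KRT18 was called lower with candidate 42 ASO3 (-0.39, limma adjusted p = 0.0496) and candidate 240 ASO3 (-0.59, adjusted p = 0.00371), KRT8 lower with candidate 240 ASO3 (-0.39, adjusted p = 0.0445), and KRT19 higher with both (0.62, adjusted p = 0.0186; 0.76, adjusted p = 0.00382). Of 6 fits with 1 library left out, the KRT18 and KRT19 calls with candidate 42 ASO3 were kept in 0 and 2, and the KRT8 call in 2. Of 10 macrophage and leukocyte markers, 2 reached 1 TPM in A549 and 1 in NCI-H460. They were CD14 in both lines and ITGAM in A549, while PTPRC, the pan-leukocyte marker, was at most 0.0158 TPM and at 0 in 14 of 15 A549 and 9 of 10 NCI-H460 libraries. The summed level of the 10 markers lay at 16.3 to 23.3 TPM with candidate 42 ASO3, 9.6 to 15.03 TPM with candidate 42 ASO5, 19.5 to 25.9 TPM with candidate 240 ASO3 and 16.6 to 19.6 TPM with the control ASO in A549. In NCI-H460 it lay at 20.2 to 29.5 TPM, 10.5 to 12.8 TPM, 17.8 to 19.3 TPM and 14.1 to 20.2 TPM for the same groups. ITGAM was called lower in A549 with candidate 42 ASO3 (-0.995, adjusted p = 0.00545). The part of these markers in the results was not tested.

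APOE was higher in every candidate 42 ASO library than in every control library of its line. In A549 it stood at 375, 189 and 217 TPM with candidate 42 ASO3, at 115, 80.1 and 74.1 TPM with candidate 42 ASO5, at 42.6, 30.2 and 33.0 TPM with candidate 240 ASO1, at 162, 87.5 and 82.8 TPM with candidate 240 ASO3, and at 52.9, 31.2 and 30.6 TPM with the control ASO (replicates 3, 4 and 5). The ASO groups averaged 6.81 times control with candidate 42 ASO3, 2.35 times with candidate 42 ASO5, 0.922 times with candidate 240 ASO1 and 2.89 times with candidate 240 ASO3. In each of the 5 groups the replicate 3 library was the highest.

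In NCI-H460 APOE was far lower. It was again highest with candidate 42 ASO3, but averaged more with candidate 42 ASO5 than with candidate 240 ASO3, the reverse of A549. It stood at 9.92 and 8.14 TPM with candidate 42 ASO3, 5.96 and 3.87 TPM with candidate 42 ASO5, 1.21 and 1.52 TPM with candidate 240 ASO1, 2.41 and 2.95 TPM with candidate 240 ASO3, and 1.53 and 0.811 TPM with the control ASO (replicates 1 and 2). The means were 7.71, 4.19, 1.16 and 2.29 times control for these ASOs in the same order. On the log2 scale the candidate 42 differences were 2.73 (ASO3) and 1.24 (ASO5) in A549, and 2.54 (ASO3) and 1.70 (ASO5) in NCI-H460.

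**Figure D1:**
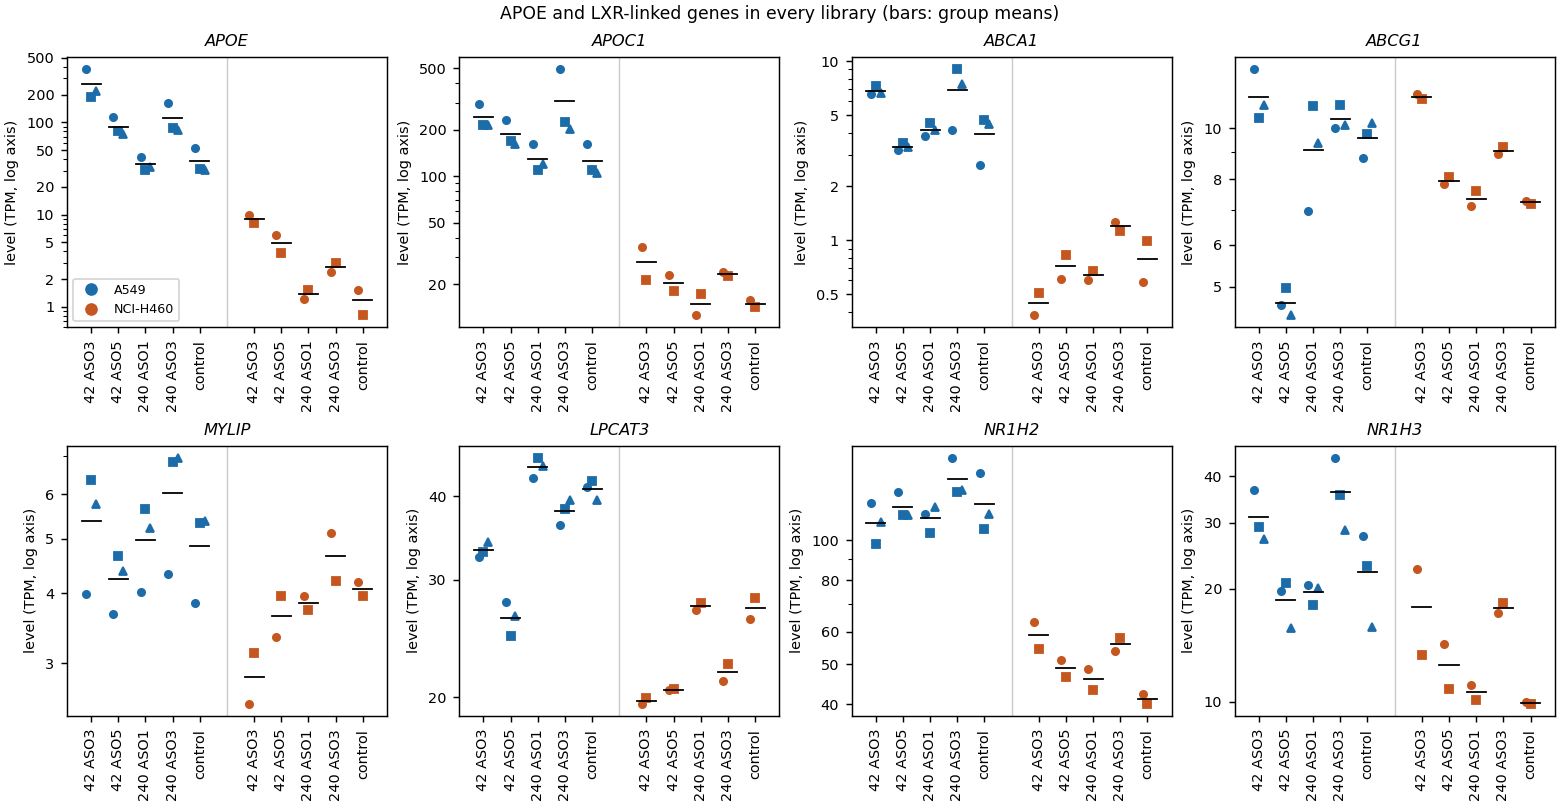
Level of each of the 8 genes in every library (TPM, log axis), with A549 in blue on the left and NCI-H460 in orange on the right of each panel; circles, squares and triangles are A549 replicates 3, 4 and 5 (circles and squares are NCI-H460 replicates 1 and 2), and bars are group means. APOE separates both candidate 42 ASO groups and candidate 240 ASO3 from control in both lines, while ABCG1 and LPCAT3 are lowest in A549 with candidate 42 ASO5.

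Candidate 240 ASO3 allowed a test of APOE, although it shares its control libraries with the candidate 42 comparisons for which APOE was chosen. In A549 APOE rose with candidate 240 ASO3 (log2 difference 1.498, SE 0.31, limma adjusted p = 0.00488), and without the replicate 3 library that stood apart the difference was 1.19 (adjusted p = 0.0177). Within replicate numbers, the ratio of candidate 240 ASO3 to control lay between 2.70 and 3.06. In NCI-H460 both libraries lay above both controls, but the difference of 0.96 (SE 0.27) did not pass the test (adjusted p = 0.0743). With candidate 240 ASO1, values overlapped the controls in both lines, at differences of -0.08 (95% interval -0.75 to 0.58) in A549 and 0.19 (-0.43 to 0.80) in NCI-H460.

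APOC1, whose start lies 4854 bp downstream of the end of APOE on chromosome 19 and which encodes a small apolipoprotein, followed APOE most closely in A549. There it stood at 295, 217 and 214 TPM with candidate 42 ASO3, 230.2, 169 and 162 TPM with candidate 42 ASO5, 162, 109.9 and 119.5 TPM with candidate 240 ASO1, 493, 226 and 204 TPM with candidate 240 ASO3, and 162, 109.6 and 105 TPM with the control ASO. Every library of candidate 42 ASO3, candidate 42 ASO5 and candidate 240 ASO3 lay above every control library. APOC1 rose with candidate 240 ASO3 (log2 difference 1.20, SE 0.29, limma adjusted p = 0.0136). Without replicate 3 of that group the difference was 0.80 (adjusted p = 0.0304). The call was lost without control replicate 4 (1.12, adjusted p = 0.0578) or 5 (1.09, adjusted p = 0.0568), and with the compared groups alone. It was kept with the replicate number as a block, which pairs these libraries. The difference of 0.96 (SE 0.29) with candidate 42 ASO3 did not pass (adjusted p = 0.0543; 1.15 and adjusted p = 0.0392 without control replicate 3), nor did 0.59 (SE 0.29) with candidate 42 ASO5 (adjusted p = 0.346).

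In NCI-H460 APOC1 stood at 34.9 and 21.2 TPM with candidate 42 ASO3, 22.9 and 18.1 TPM with candidate 42 ASO5, 12.6 and 17.4 TPM with candidate 240 ASO1, 24.0 and 22.5 TPM with candidate 240 ASO3, and 15.7 and 14.3 TPM with the control ASO. It rose with candidate 42 ASO3 (log2 difference 0.84, SE 0.23, limma adjusted p = 0.0174), but the call was lost in 3 of 4 fits with 1 library left out, at the weakest without candidate 42 ASO3 replicate 1 (0.49, adjusted p = 0.107). APOC1P1, a near-identical pseudogene copy, stood at 4.05 ± 4.10 TPM (SD, n = 3) with candidate 240 ASO3 in A549, against 0.341 ± 0.236 TPM in controls, so reads shared between the copies make the APOC1 level somewhat uncertain.

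Of the 11 genes listed around APOE, APOC1 included, 8 were tested in each line. In A549 none but APOC1 was called with any ASO. Of all genes, 10.1% were called with candidate 42 ASO3, 3.82% with candidate 42 ASO5 and 13.8% with candidate 240 ASO3. The median difference of the 8 was -0.06 with candidate 42 ASO3, where the median of all genes was 0.02. With the replicate number as a block, 3 of the 8 were called with candidate 240 ASO3, in place of 1. Of 14740 genes, the block called 1636 higher and 2060 lower there. The block also gave calls among the 8 with both candidate 42 ASOs, where the main fit gave none (counts in the last section). In NCI-H460, 6 of the 8 rose with candidate 42 ASO3, with a median of 0.53 against -0.20 over all genes, of which 13.2% were called higher. Apart from APOC1 these included BCL3, a partner of NF-kappa-B (0.87, adjusted p = 0.00335), BCAM, a cell adhesion receptor (0.69, adjusted p = 0.0133), RELB, an NF-kappa-B subunit (0.66, adjusted p = 0.0445), and TOMM40, part of the mitochondrial import pore next to APOE (0.41, adjusted p = 0.0112). Of 4 fits with 1 library left out, RELB was called in 1 (adjusted p up to 0.252), BCAM in 2 (up to 0.0851) and TOMM40 in 3 (up to 0.0906). None of the 8 was called in the other NCI-H460 comparisons with control.

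In A549, the line where both cholesterol pumps, ABCA1 and ABCG1, were tested, no comparison with control called both. A difference between these genes was not tested. In A549 both were lower with ASO5 than with ASO3 of candidate 42 (log2 difference -0.93 and -1.21). ABCA1 in A549 stood at 6.55, 7.24 and 6.61 TPM with candidate 42 ASO3, 3.203, 3.48 and 3.34 TPM with candidate 42 ASO5, 3.80, 4.501 and 4.11 TPM with candidate 240 ASO1, 4.14, 9.01 and 7.47 TPM with candidate 240 ASO3, and 2.62, 4.69 and 4.49 TPM with the control ASO. The candidate 42 ASO3 libraries all lay above the controls, the candidate 42 ASO5 libraries lay inside the range of the controls, and in each group the replicate 3 library was the lowest. The difference of 0.75 (SE 0.24, limma adjusted p = 0.0647) with candidate 42 ASO3 did not pass, and passed with median-of-ratios scaling (0.74, adjusted p = 0.0493). With candidate 240 ASO3 the difference was 0.71 (SE 0.24, adjusted p = 0.0688); with the replicate number as a block, which pairs these libraries, it passed (adjusted p = 0.0136), as it did without the replicate 3 library of that group (1.01, adjusted p = 0.00482). ABCA1 overlaps an antisense transcript, AL359182.1, at its start; no source used here says how strand was handled, so reads of overlapping genes on opposite strands cannot be told apart.

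ABCA1 in NCI-H460 averaged under 1 TPM and was not tested in the main fit of that line. It stood at 0.382 and 0.508 TPM with candidate 42 ASO3, 0.605 and 0.828 TPM with candidate 42 ASO5, 0.604 and 0.674 TPM with candidate 240 ASO1, 1.27 and 1.13 TPM with candidate 240 ASO3, and 0.582 and 0.987 TPM with the control ASO. The candidate 42 ASO3 libraries were thus the lowest for ABCA1 and the highest for APOE. Fitted with no filter, the candidate 42 ASO3 difference was -0.43 (SE 0.26, limma adjusted p = 0.376) and the candidate 240 ASO3 difference 0.42 (SE 0.26, adjusted p = 0.540).

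ABCG1 fell in A549 with candidate 42 ASO5, while APOE was raised in the same libraries. It stood at 12.9, 10.4 and 11.05 TPM with candidate 42 ASO3, 4.60, 4.97 and 4.41 TPM with candidate 42 ASO5, 6.96, 11.01 and 9.35 TPM with candidate 240 ASO1, 10.02, 11.1 and 10.1 TPM with candidate 240 ASO3, and 8.77, 9.76 and 10.2 TPM with the control ASO. The candidate 42 ASO5 libraries lay below all 12 others of the line. The difference to control was -0.97 (SE 0.15, limma adjusted p = 0.00303), between -1.02 and -0.92 with any 1 library of the comparison left out, and called in all 6 of those fits. With candidate 42 ASO3 it was 0.24 (SE 0.15, adjusted p = 0.368).

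In NCI-H460 ABCG1 stood at 11.6 and 11.3 TPM with candidate 42 ASO3, 7.83 and 8.07 TPM with candidate 42 ASO5, 7.11 and 7.58 TPM with candidate 240 ASO1, 8.93 and 9.19 TPM with candidate 240 ASO3, and 7.28 and 7.17 TPM with the control ASO. It rose with candidate 42 ASO3 (log2 difference 0.63, SE 0.11, limma adjusted p = 0.00214; called in all 4 fits with 1 library left out). With candidate 42 ASO5 the difference was 0.13 (SE 0.11, adjusted p = 0.614).

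Where the candidate 42 ASOs went with higher APOE, LPCAT3, the phospholipid enzyme, was lower. In A549 it stood at 32.4, 33.0 and 34.2 TPM with candidate 42 ASO3, 27.8, 24.7 and 26.4 TPM with candidate 42 ASO5, 42.6, 45.6 and 44.4 TPM with candidate 240 ASO1, 36.2, 38.3 and 39.4 TPM with candidate 240 ASO3, and 41.2, 42.1 and 39.5 TPM with the control ASO. All candidate 42 ASO libraries lay below all controls. With candidate 240 ASO3, where APOE was higher too, the LPCAT3 difference was -0.11 (SE 0.08, limma adjusted p = 0.453). LPCAT3 fell with candidate 42 ASO5 (log2 difference -0.63, SE 0.08, limma adjusted p = 0.000753; called in all 6 fits with 1 library left out) and with candidate 42 ASO3 (-0.30, SE 0.08, adjusted p = 0.0324), where none of the 6 fits with 1 library left out kept the call (adjusted p = 0.0525 without control replicate 5 to 0.0968 without control replicate 4).

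In NCI-H460 LPCAT3 stood at 19.6 and 20.0 TPM with candidate 42 ASO3, 20.5 and 20.6 TPM with candidate 42 ASO5, 27.0 and 27.7 TPM with candidate 240 ASO1, 21.2 and 22.5 TPM with candidate 240 ASO3, and 26.2 and 28.1 TPM with the control ASO. The libraries of the other ASOs, all but candidate 240 ASO1, lay below the controls. The fall passed the test with candidate 42 ASO3 (log2 difference -0.45, SE 0.09, limma adjusted p = 0.00444), a call lost with median-of-ratios scaling (-0.23, adjusted p = 0.0680). The difference of -0.40 (SE 0.09) with candidate 42 ASO5 did not pass (adjusted p = 0.105), nor did -0.31 (SE 0.09) with candidate 240 ASO3 (adjusted p = 0.0795). LPCAT3 overlaps EMG1 and C1S on the opposite strand.

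MYLIP, the ubiquitin ligase, was called in none of the 8 comparisons of an ASO with control. In A549 its group means lay between 4.24 TPM (candidate 42 ASO5) and 6.04 TPM (candidate 240 ASO3), with 4.85 ± 0.877 TPM (SD, n = 3) in controls. In NCI-H460 it stood at 2.54 and 3.12 TPM with candidate 42 ASO3, against 4.19 and 3.95 TPM with the control ASO. These groups did not overlap, and the difference of -0.46 (SE 0.17, limma adjusted p = 0.0536) did not pass.

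The LXR genes themselves differed in pattern. NR1H3 (LXR alpha) in A549 stood at 36.7, 29.3 and 27.1 TPM with candidate 42 ASO3, 19.7, 20.8 and 15.8 TPM with candidate 42 ASO5, 20.5, 18.1 and 20.1 TPM with candidate 240 ASO1, 44.7, 35.6 and 28.7 TPM with candidate 240 ASO3, and 27.6, 23.0 and 15.8 TPM with the control ASO. Only candidate 240 ASO3 lay wholly above the controls. There NR1H3 rose (log2 difference 0.71, SE 0.20, limma adjusted p = 0.0305), a call kept in 2 of 6 fits with 1 library left out and lost without replicate 3 of the ASO group (0.55, adjusted p = 0.1003). The call was kept with the replicate number as a block, which pairs these libraries. It was lost with median-of-ratios scaling, with no filter and with the compared groups alone. The difference of 0.50 (SE 0.20) with candidate 42 ASO3 did not pass (adjusted p = 0.145), and with candidate 42 ASO5 it was -0.21 (SE 0.20, adjusted p = 0.703).

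In NCI-H460 NR1H3 stood at 22.5 and 13.3 TPM with candidate 42 ASO3, 14.3 and 10.8 TPM with candidate 42 ASO5, 11.1 and 10.1 TPM with candidate 240 ASO1, 17.2 and 18.4 TPM with candidate 240 ASO3, and 9.98 and 9.88 TPM with the control ASO. All ASO libraries lay above both controls. NR1H3 rose with candidate 42 ASO3 (log2 difference 0.78, SE 0.22, limma adjusted p = 0.0191), a call kept in 1 of 4 fits with 1 library left out (0.41 and adjusted p = 0.0970 without replicate 1 of the ASO group). The difference of 0.81 (SE 0.22) with candidate 240 ASO3 did not pass (adjusted p = 0.0657). NR1H3 overlaps ACP2 on the opposite strand.

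NR1H2 (LXR beta) was the most abundant of the receptor genes in both lines. In A549 its group means lay between 111 TPM (candidate 42 ASO3) and 141 TPM (candidate 240 ASO3), with 123 ± 20.5 TPM (SD, n = 3) in controls, and no ASO gave a call. In NCI-H460 it stood at 63.4 and 54.3 TPM with candidate 42 ASO3, 51.3 and 46.7 TPM with candidate 42 ASO5, 48.8 and 43.4 TPM with candidate 240 ASO1, 53.8 and 58.05 TPM with candidate 240 ASO3, and 42.4 and 40.1 TPM with the control ASO. All ASO libraries lay above both controls, and NR1H2 rose with candidate 42 ASO3 (log2 difference 0.50, SE 0.11, limma adjusted p = 0.00645; 0.46 and adjusted p = 0.0502 without control replicate 2). Genes on the opposite strand overlap NR1H2, NAPSA among them.

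The members' calls are set here beside the share of all genes called. With candidate 42 ASO3 in A549, 1 of the 7 other members was called, LPCAT3, which was lower, where 10.1% of all tested genes were called (3.43% higher and 6.63% lower). With the replicate number as a block, APOC1, ABCA1 and NR1H3 were called higher too, where 1322 of all genes were higher and 1790 lower. These libraries missed the rule for pairing by replicate number (every r over 0.1), with r of 0.39, 0.11 and 0.09 for replicates 3, 4 and 5. With candidate 42 ASO5, 2 of 7 were called, ABCG1 and LPCAT3, both lower, where 3.82% of all genes were called (1.42% higher and 2.4% lower). The block called APOC1 higher too, where 674 of all genes were higher and 859 lower. These libraries missed the rule for pairing too (r = 0.02 to 0.32). With candidate 240 ASO3, 3 of 8 were called, APOE, APOC1 and NR1H3, all higher, where 13.8% of all genes were called (6% higher and 7.82% lower). With candidate 240 ASO1, limma called 0 of 8 members and 0 of all genes (0%), and 0 members at an unadjusted p under 0.05.

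In NCI-H460, 5 of the 6 other members tested were called with candidate 42 ASO3, ABCG1, APOC1, NR1H2 and NR1H3 higher and LPCAT3 lower. In that comparison 46% of all genes were called, 13.2% higher and 32.8% lower, and the median difference of all genes was -0.20. With median-of-ratios scaling that median was 0.01, and 50.7% of all called genes were higher, in place of 28.7%. The same 4 members stayed higher under that scaling. Mitochondrial transcripts made up 8.95% to 9.51% of the signal with candidate 42 ASO3 and 7.93% to 8.05% with the control ASO, and 23879 to 25778 gene names were above 0 with candidate 42 ASO3, against 25848 to 26518 with the control ASO. Neither range overlapped that of the controls. The mitochondrial share also lay above the controls with candidate 240 ASO1 (8.48% to 9.85%) and candidate 240 ASO3 (8.41% to 8.74%). The part of these measures in the calls was not tested. With candidate 42 ASO5 limma called 0 of 6 (0.508% of all genes called; 1 member, LPCAT3, at an unadjusted p under 0.05), with candidate 240 ASO3 0 of 7 (5.66% of all genes, 2.65% higher and 3.01% lower; 6 members at an unadjusted p under 0.05), and with candidate 240 ASO1 0 of 7 (0% of all genes; 0 members). In the authors' deposited table, the q-value for candidate 42 ASO3 in A549 was 0.00553 for APOC1, 0.0345 for ABCA1 and 0.0275 for NR1H3, none of them called here, and 0.0835 for LPCAT3, the gene called here. The authors' deposited table also gives q-values under 0.05 to APOC1 with candidate 42 ASO5 in A549 (0.0312), to MYLIP with candidate 42 ASO3 in NCI-H460 (0.0439), and to NR1H2 (0.0373) and NR1H3 (0.0341) with candidate 240 ASO3 in NCI-H460, where limma made no call.

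**Figure D2:**
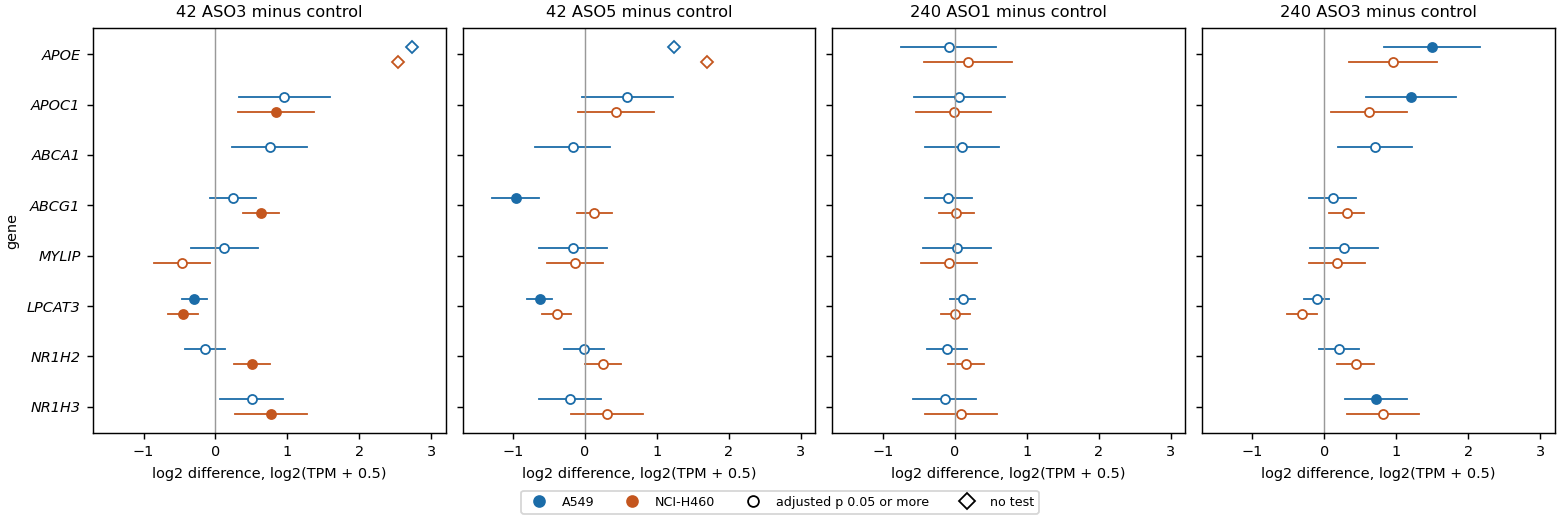
Log2 difference between each ASO group and the control group of its line (x axis, log2 of TPM + 0.5) for the 8 genes (y axis), with 95% intervals from limma; filled circles have an adjusted p under 0.05, and open diamonds are the APOE values that chose the list and carry no test. ABCA1 is absent in NCI-H460, where it lay under the filter of 1 TPM. APOE lies at 2.73 and 2.54 with candidate 42 ASO3, whereas ABCG1 lies at -0.97 in A549 with candidate 42 ASO5, and no gene is called with candidate 240 ASO1.

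In A549 the ASOs against candidate 42 differed from each other in the pumps and in NR1H3, a comparison that does not use the controls. In A549, ASO5 minus ASO3 gave a lower ABCG1 (log2 difference -1.21, SE 0.15, limma adjusted p = 0.000199; called in all 6 fits with 1 library left out) and a lower ABCA1 (-0.93, SE 0.24, adjusted p = 0.0248). LPCAT3 (-0.33, SE 0.08, adjusted p = 0.0180) and NR1H3 (-0.71, SE 0.20, adjusted p = 0.0377) were lower too, so that 4 of 7 members were called lower where 4.63% of all genes were (6.02% higher, 10.7% either way). The ABCA1 and NR1H3 calls were lost in each of the 6 fits with 1 library left out (at most adjusted p = 0.0833 for ABCA1, without candidate 42 ASO3 replicate 4, and 0.145 for NR1H3, without candidate 42 ASO5 replicate 5). That of LPCAT3 was lost in 4 of the 6, each without a replicate 4 or replicate 5 library. The replicate number as a block, which pairs these libraries, kept all 4 calls, where 1759 of all genes were higher and 1393 lower. Median-of-ratios scaling lost NR1H3, and the fit with no filter lost ABCA1 and NR1H3. APOC1 differed by -0.37 (95% interval -0.999 to 0.259), which did not pass, and APOE by -1.49, untested. In NCI-H460, 1 of 6 members was called, ABCG1 (-0.50, SE 0.11, adjusted p = 0.00867), where 33.3% of all genes were called (27.7% higher and 5.62% lower), with a median of 0.21 over all genes that was -0.0052 with median-of-ratios scaling. The call was lost without candidate 42 ASO5 replicate 1 (adjusted p = 0.0513) or 2 (adjusted p = 0.0504). NR1H3 differed there by -0.47 (SE 0.22), which did not pass (limma adjusted p = 0.132), and ABCA1 was under the filter. APOE differed there by -0.84, untested.

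Between the lines, APOE, APOC1, NR1H2, NR1H3, LPCAT3 and ABCG1 were called higher in A549 controls than in NCI-H460 controls. APOE averaged 38.2 ± 12.7 TPM (SD, n = 3) in A549 and 1.17 ± 0.510 TPM (n = 2) in NCI-H460, a log2 difference of 4.52 (SE 0.33, limma adjusted p = 5.37e-10). APOC1 averaged 125 ± 31.6 TPM in A549 and 15.01 ± 1.02 TPM in NCI-H460 (2.99, adjusted p = 9.66e-08). ABCA1 averaged 3.94 ± 1.14 TPM in A549 and 0.785 ± 0.287 TPM in NCI-H460; it passed the filter of the joint fit through its A549 levels, so this is given with no test. The differences were 1.55 for NR1H2, 1.08 for NR1H3, 0.58 for LPCAT3 and 0.38 for ABCG1, where 36.4% of all genes were called higher and 18.4% lower (54.9% either way, of 14769 genes). The ABCG1 call was lost with median-of-ratios scaling (0.17, adjusted p = 0.311), and without control replicate 4 or 5 of A549 or either NCI-H460 control. MYLIP differed by 0.21 (95% interval -0.24 to 0.67) and was not called. The median of all genes was 0.21, and 0.0037 with median-of-ratios scaling.

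The response to an ASO, as the difference to control in A549 minus that in NCI-H460, was tested in a fit of all 25 libraries. With candidate 42 ASO3 19.7% of all genes were called (15.5% higher and 4.22% lower; median 0.15, and -0.08 with median-of-ratios scaling). NR1H2 responded less in A549 (-0.65, SE 0.19, limma adjusted p = 0.0241), a call kept in 5 of 10 fits with 1 library left out (adjusted p up to 0.162, without candidate 42 ASO3 replicate 1 of NCI-H460) and lost with no filter (adjusted p = 0.0564). For ABCA1, which passed the filter of this fit through its A549 levels, the difference was 1.18 (SE 0.35), and it did not pass in the fit with no filter (adjusted p = 0.0673). APOC1 responses differed by 0.12 (95% interval -0.80 to 1.04). With candidate 42 ASO5 ABCG1 differed by -1.09 (SE 0.20), which did not pass (adjusted p = 0.0754), and 0.0339% of all genes were called (0.0203% higher and 0.0135% lower). APOE responses differed by 0.19 with candidate 42 ASO3 and -0.46 with candidate 42 ASO5, both untested. limma called 0 members for candidate 42 ASO5 (2 at an unadjusted p under 0.05), and 0 for candidate 240 ASO1 and ASO3 (0 at an unadjusted p under 0.05), where 0% and 1.21% of all genes were called.

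Across all libraries of a line, the Pearson correlation with APOE on the log2 scale describes how alike the patterns were; the libraries share groups and scaling, so no p is given. Over the 15 A549 libraries it was 0.83 for APOC1 (above 99.2% of tested genes), 0.66 for NR1H3, 0.42 for ABCA1, 0.18 for NR1H2, 0.14 for ABCG1, -0.09 for MYLIP and -0.54 for LPCAT3. Within replicate numbers it was 0.63 for ABCA1, 0.28 for MYLIP and -0.01 for NR1H2, with a change of sign for MYLIP and NR1H2. Over the 10 NCI-H460 libraries it was 0.84 for ABCG1 (above 96.7%), 0.82 for APOC1, 0.77 for NR1H2, 0.67 for NR1H3, -0.70 for MYLIP and -0.92 for LPCAT3 (above 1.00%). APOC1 and NR1H3 thus had positive values and LPCAT3 negative values in both lines, whereas ABCG1 had 0.14 in A549 and 0.84 in NCI-H460.

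The genes most like APOE were others. In A549 they were VTN (0.97), DMKN (0.96), CYSRT1 (0.96), MTA2 (0.96) and REEP2 (0.95) out of 10466 genes averaging 5 TPM or more. VTN, which encodes the adhesive plasma protein vitronectin, averaged 98.3 ± 13.7 TPM with candidate 42 ASO3, 56.4 ± 3.02 TPM with candidate 42 ASO5, 29.5 ± 1.18 TPM with candidate 240 ASO1, 73.8 ± 13.1 TPM with candidate 240 ASO3 and 31.7 ± 3.08 TPM with the control ASO (SD, n = 3 each). In NCI-H460 they were CDC20 (0.98), SFN (0.97), NFKBIA (0.97), ZNF622 (0.97) and ALYREF (0.96) out of 9542. CDC20, an activator of the anaphase-promoting complex, averaged there 155.1 ± 0.98 TPM with candidate 42 ASO3 and 116 ± 2.45 TPM with the control ASO (SD, n = 2 each).

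**Figure D3:**
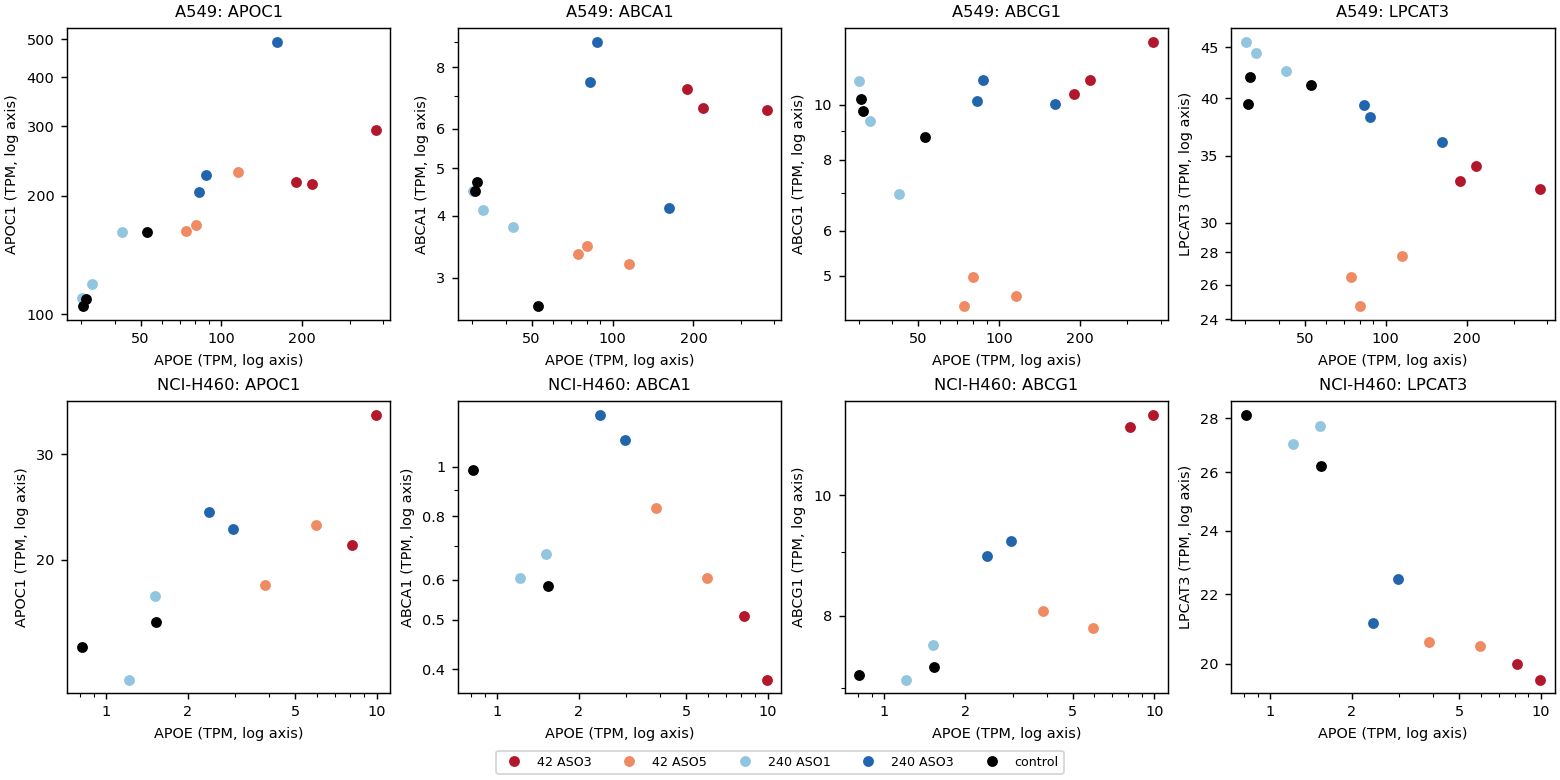
Level of APOC1, ABCA1, ABCG1 and LPCAT3 (y axis) against that of APOE (x axis), both in TPM on log axes, 1 point per library coloured by group, with A549 above and NCI-H460 below. APOC1 climbs with APOE in both lines, and LPCAT3 lies below the controls with both candidate 42 ASOs in both lines. In A549 the candidate 42 ASO5 libraries fall away from the others for ABCG1 (4.60, 4.97 and 4.41 TPM).

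A549 expressed 12 of 20 other listed LXR targets highly enough to be tested, and NCI-H460 expressed 9. FASN, the fatty acid synthase driven by LXR through SREBP-1c, rose in 4 of the comparisons with control. In A549 FASN stood at 513, 408 and 403 TPM with candidate 42 ASO3, 443, 425 and 349.5 TPM with candidate 42 ASO5, 531, 470.4 and 388 TPM with candidate 240 ASO3, and 295, 217 and 170 TPM with the control ASO. These ASO groups did not overlap the controls, and FASN rose in each (limma log2 difference 0.98 and adjusted p = 0.00328, 0.86 and 0.0180, 1.05 and 0.00142, in the same order). The call with candidate 42 ASO5 was kept in 2 of 6 fits with 1 library left out. In NCI-H460 FASN stood at 602 and 489.6 TPM with candidate 42 ASO3, against 235 and 231 TPM with the control ASO, and rose (1.22, adjusted p = 0.000355).

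APOD, which encodes a lipocalin found on HDL, rose in A549 with candidate 42 ASO3 (6.56 ± 0.675 TPM, against 3.06 ± 0.348 TPM in controls; log2 difference 0.99, limma adjusted p = 0.00236) and with candidate 240 ASO3 (6.71 ± 0.591 TPM; 1.02, adjusted p = 0.00134), and stood at 2.61 ± 0.502 TPM with candidate 42 ASO5 (SD, n = 3 each). It was under the filter in NCI-H460. PLTP, the phospholipid transfer protein, was abundant in NCI-H460, at 83.3 and 67.5 TPM with candidate 42 ASO3, 120.3 and 127 TPM with candidate 42 ASO5, 81.0 and 77.3 TPM with candidate 240 ASO3, and 58.5 and 51.4 TPM with the control ASO. It rose in all 3 (0.45, adjusted p = 0.0131; 1.16, adjusted p = 0.00933; 0.53, adjusted p = 0.0360); leaving out any 1 library ended the calls with candidate 42 ASO5 (adjusted p up to 0.105) and candidate 240 ASO3 (up to 0.252), and 2 of the 4 such fits kept that with candidate 42 ASO3.

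In all, 2 of 12 of these targets were called with candidate 42 ASO3 in A549, both higher, with a list median of 0.21 against 0.02 over all genes (3.43% called higher). With candidate 42 ASO5 1 of 12 was higher (median 0.08, against 0.02; 1.42% of all genes higher), and with candidate 240 ASO3 2 were higher and 2 lower (median 0.09, against -0.01; 6% of all genes higher and 7.82% lower); the lower ones were TGM2, a transglutaminase (-0.71, adjusted p = 0.0419; called in 1 of 6 fits with 1 library left out, adjusted p up to 0.124), and ELOVL5, a fatty acid elongase (-0.60, adjusted p = 0.00384). In NCI-H460 with candidate 42 ASO3, 4 of 9 were higher and 2 lower (median -0.01, against -0.20; 13.2% of all genes higher and 32.8% lower). The higher ones were FASN, PLTP, NPC2, a lysosomal cholesterol carrier (0.53, adjusted p = 0.00317), and SREBF1, which encodes SREBP-1 (0.49, adjusted p = 0.00767; kept in 3 of 4 fits with 1 library left out), and ELOVL5 was lower (-0.76, adjusted p = 0.00121). There 1 of 9 was higher with candidate 42 ASO5 (0.182% of all genes), and with candidate 240 ASO3 1 was higher and 1 lower (2.65% and 3.01% of all genes). The lower one was ELOVL5 (-0.48, adjusted p = 0.0470), called in 0 of 4 fits with 1 library left out (adjusted p up to 0.271).

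LIPA, the lysosomal acid lipase that frees cholesterol from lipoprotein esters, was lower with most of the ASOs that went with higher APOE. In A549 LIPA stood at 47.7, 59.7 and 58.4 TPM with candidate 42 ASO3, 38.7, 41.1 and 44.8 TPM with candidate 42 ASO5, 33.0, 29.7 and 37.6 TPM with candidate 240 ASO3, and 61.1, 70.9 and 70.2 TPM with the control ASO. It fell with candidate 42 ASO5 (log2 difference -0.69, limma adjusted p = 0.00810) and candidate 240 ASO3 (-1.01, adjusted p = 0.000134), and the difference of -0.29 with candidate 42 ASO3 did not pass (adjusted p = 0.181).

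In NCI-H460 LIPA stood at 31.8 and 36.0 TPM with candidate 42 ASO3, 39.7 and 36.1 TPM with candidate 42 ASO5, 42.7 and 32.4 TPM with candidate 240 ASO3, and 68.9 and 67.3 TPM with the control ASO. It fell in all 3 (-0.999, limma adjusted p = 0.000716; -0.84, adjusted p = 0.0411; -0.86, adjusted p = 0.0101). The calls with candidate 42 ASO5 and candidate 240 ASO3 were kept in 0 and 1 of 4 fits with 1 library left out, with adjusted p up to 0.272 and 0.0809. All ASO libraries named here lay below both controls.

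LIPA belongs to 15 listed genes of oxysterol synthesis and sterol handling, of which 9 were tested in A549. With candidate 42 ASO3 2 fell, SULT2B1, a sulfotransferase acting on oxysterols (-0.75, limma adjusted p = 0.00229), and HSD3B7, an enzyme of bile acid synthesis (-0.43, adjusted p = 0.0465), where 6.63% of all genes were lower; HSD3B7 was called in 0 of 6 fits with 1 library left out (adjusted p up to 0.158). LIPA was the 1 call with candidate 42 ASO5 (2.4% of all genes lower) and with candidate 240 ASO3 (7.82%). In NCI-H460 with candidate 42 ASO3, 4 of 10 rose and 5 fell, where 13.2% of all genes rose and 32.8% fell. Those that fell included NCEH1, a cholesterol ester hydrolase (-1.68, adjusted p = 0.000556), SOAT1, which esterifies cholesterol (-1.53, adjusted p = 0.000395), and STARD4, a cholesterol carrier (-1.21, adjusted p = 0.00117). SULT2B1 rose there (1.26, adjusted p = 0.00755; kept in 2 of 4 fits with 1 library left out).

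Genes of the SREBP-2 response, the cholesterol-shortage programme, were all tested (8 of 8). In A549, 2 rose with candidate 42 ASO3, IDI1, an isoprenoid enzyme (0.70, limma adjusted p = 0.00417), and INSIG1, which holds the SREBP escort protein in the endoplasmic reticulum (0.62, adjusted p = 0.0121). With candidate 42 ASO5 those that rose included HMGCS1 (1.11, adjusted p = 0.0402), IDI1 (0.69, adjusted p = 0.0108) and SQLE (0.48, adjusted p = 0.0305). Of 6 fits with 1 library left out, HMGCS1 and SQLE were each called in 2 (adjusted p up to 0.159 and 0.141) and IDI1 in 4 (up to 0.0656), and the INSIG1 call with candidate 42 ASO3 was kept in 5. With candidate 240 ASO3 2 rose, IDI1 (0.88, adjusted p = 0.000595) and SQLE (0.56, adjusted p = 0.00351). The list medians were 0.39, 0.49 and 0.44 in this order, against 0.02, 0.02 and -0.01 over all genes, of which 3.43%, 1.42% and 6% were called higher. In NCI-H460 the only call was INSIG1, higher with candidate 42 ASO3 (0.49, adjusted p = 0.0136, kept in 2 of 4 fits with 1 library left out). There 13.2% of all genes were called higher with candidate 42 ASO3. With candidate 42 ASO5 and candidate 240 ASO3, 0.508% and 5.66% of all genes were called either way.

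**Figure D4:**
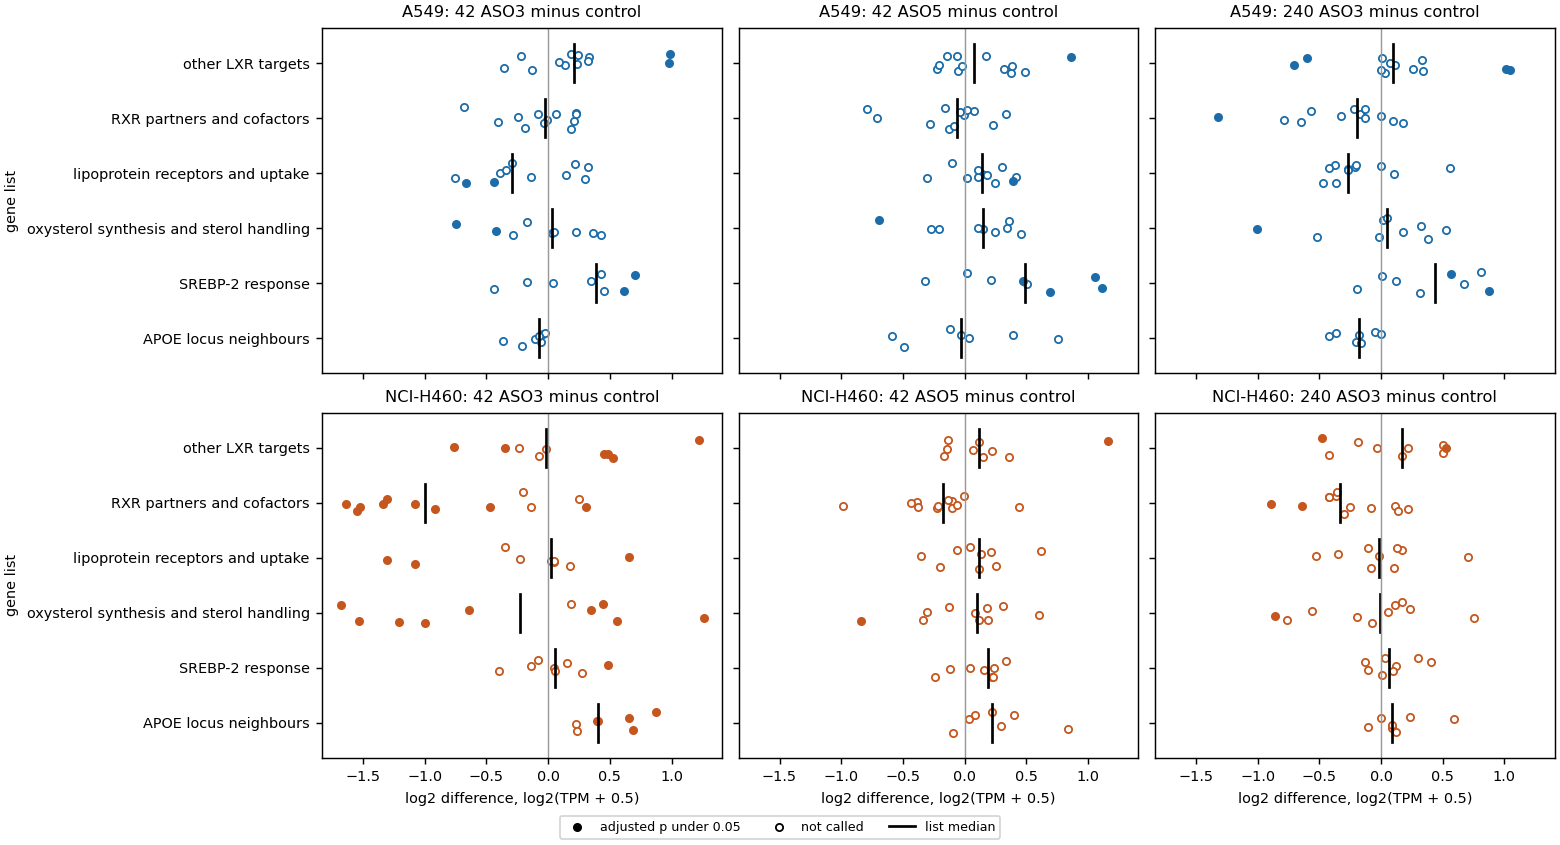
Log2 difference to control (x axis, log2 of TPM + 0.5) of the tested genes of 6 lists (y axis) in A549 (above) and NCI-H460 (below) with candidate 42 ASO3, candidate 42 ASO5 and candidate 240 ASO3; filled points have an adjusted p under 0.05, the 8 main genes are left out, and bars are list medians. In A549 the SREBP-2 response has the highest list medians (0.39, 0.49 and 0.44), and in NCI-H460 with candidate 42 ASO3 most RXR partners and cofactors lie below 0.

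Receptors that take up lipoproteins and the partners of LXR were the last lists. Among the 11 uptake genes tested in A549, those that fell with candidate 42 ASO3 included LRPAP1, a receptor chaperone (-0.67, limma adjusted p = 0.0206; kept in 3 of 6 fits with 1 library left out), and 0 were called with candidate 240 ASO3. Of 12 RXR partners and cofactors, 0 were called with either candidate 42 ASO, and NCOA1, a nuclear receptor coactivator, fell with candidate 240 ASO3 (-1.32, adjusted p = 0.00223). In A549, 10.1%, 3.82% and 13.8% of all genes were called with candidate 42 ASO3, candidate 42 ASO5 and candidate 240 ASO3. In NCI-H460 with candidate 42 ASO3, 8 of 12 cofactors fell and 1 rose, with a median of -0.999 against -0.20 over all genes, of which 32.8% were called lower and 13.2% higher. Those lowest were NRIP1 (-1.64, adjusted p = 0.00062), NCOA3 (-1.55, adjusted p = 0.000247), NCOA2 (-1.53, adjusted p = 0.000875), NCOA1 (-1.33, adjusted p = 0.00158) and TBL1X (-1.30, adjusted p = 0.000308). There VLDLR (-1.30, adjusted p = 0.000274) and LRP8 (-1.08, adjusted p = 0.000286), both APOE receptors, fell, and LRP1, another of them, rose (0.66, adjusted p = 0.0209; called in 1 of 4 fits with 1 library left out, adjusted p up to 0.119). With candidate 240 ASO3 NCOA1 (-0.89, adjusted p = 0.0473) and the corepressor gene NCOR1 (-0.64, adjusted p = 0.0102) fell in NCI-H460, each called in 1 of 4 fits with 1 library left out (adjusted p up to 0.247 and 0.101).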

How the data were processed

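The submitters' processing notes name kallisto and sleuth 0.30 with genome build hg38; no source used here gives the annotation release or the strand handling. Expression was deposited by the authors as 1 table of signal per gene name, in TPM, whose column sums run from 924350 to 1179224, so the values had been rescaled, and depth is unknown. Per the file headers, 8 tables deposited by the authors compare each ASO with control and hold log2 fold changes and q-values. Columns tied to no sample numbered 0.

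R 4.3.3 and limma 3.58.1 (lmFit, contrasts.fit, eBayes with trend) were run on log2(TPM + 0.5), which understates changes of low genes, for genes averaging 1 TPM or more in the libraries fitted, with 1 mean per group, two-sided, with Benjamini-Hochberg adjustment. All 5 groups of a line were fitted together, and all 25 libraries for comparisons between lines. Scripts were tested on simulated data. The members and lists were chosen with earlier results of these data known. All members are named; from other lists, called genes, at most 5 per list and comparison by size. Some genes that this rule names are not reported here. Same-numbered A549 libraries deviated together (every r over 0.1) for candidate 240 ASO1 and ASO3 against control (0.17 to 0.56) and for ASO5 minus ASO3 of candidate 42 (0.13 to 0.41). Alternatives were median-of-ratios scaling, a pseudocount of 0.1, no filter, the compared groups alone, a replicate block and leaving out each library. The promoter windows are RefSeq's, and gene overlaps are from GENCODE 29.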

Additional observations from a re-analysis of the deposited data

Results flagged for a closer look

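For ABCA1 the response to candidate 42 ASO3 differed between the lines by 1.18 (SE 0.35) as A549 minus NCI-H460, in a limma fit of all 25 libraries. ABCA1 passed the filter of that fit through its A549 levels, so this is given with no test. In the fit with no filter the difference did not pass (limma adjusted p = 0.0673). ABCA1 was 1.73 times control in A549 and 0.567 times control in NCI-H460, where it lay under 1 TPM. For NR1H2 the response also differed, by -0.65 (SE 0.19, limma adjusted p = 0.0241). That was called in 5 of 10 fits with 1 library left out and not with no filter (adjusted p = 0.0564). NR1H2 averaged 111 ± 12.5 TPM with candidate 42 ASO3 and 123 ± 20.5 TPM in controls in A549 (SD, n = 3 each), and 58.8 ± 6.37 TPM with candidate 42 ASO3 and 41.3 ± 1.66 TPM in controls in NCI-H460 (SD, n = 2 each).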

How the results depend on the processing

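Depth is unknown for TPM values, so no counting limit can be given, and ABCA1 in NCI-H460 rests on under 1.3 TPM. The number of members called moved by over 1.5 times in these settings. For candidate 42 ASO3 in A549 (1) it was 2 with median-of-ratios scaling, 4 with the replicate block and 0 to 1 with a library left out. For candidate 240 ASO3 in A549 (3) it was 1 with the compared groups alone and 1 to 3 with a library left out. For ASO5 minus ASO3 in A549 (4) it was 2 with no filter and 1 to 2 with a library left out. For candidate 42 ASO3 in NCI-H460 (5) it was 3 with no filter and 2 to 6 with a library left out, for candidate 240 ASO3 (0) 2 with the compared groups alone, and for ASO5 minus ASO3 (1) 2 with median-of-ratios scaling, 0 with the compared groups alone and 0 to 4 with a library left out. For the response difference with candidate 42 ASO3 (2) it was 0 with no filter and 0 to 2 with a library left out, and with candidate 42 ASO5 (0) it was 1 with no filter. The count of 2 holds ABCA1, which passed the filter of that fit through its A549 levels. The response difference of APOE with candidate 42 ASO3 (0.19, untested) was -0.087 with median-of-ratios scaling, -0.15 with a pseudocount of 0.1, and -0.12 to 0.51 with a library left out. The cause was not tested. The libraries of candidate 42 ASO3 (r = 0.09 to 0.39) and candidate 42 ASO5 (0.02 to 0.32) missed the rule for pairing with A549 controls (every r over 0.1). There the replicate block added APOC1 (limma adjusted p = 0.000421 and 0.0170), ABCA1 (0.0117) and NR1H3 (0.0176) to the calls, the last 2 for ASO3. With the block, 1 and 5 of the 8 APOE locus neighbours tested were called for these ASOs, in place of 0, APOC1 among them for both. Of 14740 genes, the block called 1322 higher and 1790 lower with ASO3, and 674 higher and 859 lower with ASO5. For members with a replicate block, the only other call that changed was ABCA1 with candidate 240 ASO3 in A549.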
